A study of Caenorhabditis elegans with 4 samples.

Results

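Broad H3K4me3 domains were taken as the stretches of the genome that carried at least 2500 bp of called H3K4me3 peak in each of the 2 peak lists of the study. Peaks of the lists that overlapped by 1 bp or more were joined into regions, of which there were 4661, and 2917 of these held peaks of both lists and are called shared. In 377 shared regions (12.9% of the 2917) the summed peak width reached 2500 bp in both lists. These 377 regions are the broad domains, and the remaining 2540 shared regions are the comparison throughout. The domains were thus chosen by the measured widths of both lists, so widths, and the scores of the same peaks, are given as descriptions with no test.

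Trimethylation of lysine 4 of histone H3 is placed by SET1/MLL-type methyltransferases, which in C. elegans include SET-2, and is concentrated at the promoters of transcribed genes. Most such marks are confined to the first nucleosomes of a gene, whereas a minority spread far into the transcribed body. In mammalian cells, such spread domains are known to be frequent at genes of cell identity and at highly transcribed genes. The C. elegans genome is compact, and some of its genes lie in operons that share a promoter.

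The samples were whole larvae of the wild-type strain N2 at the third larval stage (L3), grown in liquid culture without any treatment or mutation, and crosslinked with 1% formaldehyde. Chromatin was immunoprecipitated with an H3K4me3 antibody from Wako in 2 replicates of a single group, and the sequenced fragments were selected at 250 to 500 bp. Each ChIP sample has an input DNA control in the labels, which was not analysed here. Whole animals mix many tissues, so a domain that is broad in a few cells and one that is broad in most cannot be told apart. Replicate 1 had 4408 peaks over 6.86 Mb and replicate 2 had 3280 peaks over 5.40 Mb, and read depth is not known for either. With 2 samples of 1 group no test over samples is possible. Intervals are therefore 95% intervals over regions (Wilson for shares, Newcombe for differences of shares, order statistics for medians), which treat regions as independent and cover counting error only. All positions are on the WormBase WS190 build. No gene or sequence is given for them, since no genome or annotation of that build was used here.

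Broad domains were few, but they held a large part of the marked bases. Their 394 peaks in replicate 1 were 8.94% of that list and covered 1.45 Mb, which was 21.1% of all its peak bases. Their 438 peaks in replicate 2 were 13.4% of that list and covered 1.39 Mb, or 25.7% of its peak bases. The median width of a domain was 3523 bp in replicate 1 (interquartile range 3012 to 4238 bp) and 3352 bp in replicate 2 (2892 to 4095 bp). The other shared regions had medians of 1418 and 1321.5 bp. By the smaller of the 2 widths, which is the one used for ranking below, 137 domains lay between 2500 and 3000 bp, 149 between 3000 and 4000 bp, 65 between 4000 and 5000 bp, and 26 at 5000 bp or more.

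The limit of 2500 bp cut through a continuous range of widths. Just inside it, a domain on chromosome III (13621205 to 13623838) measured 2507 bp in replicate 1 and 2506 bp in replicate 2. A domain on chromosome IV (3047981 to 3051442) measured 2512 and 3446 bp, and another there (10150343 to 10154327) measured 2514 and 3741 bp. Just outside it, regions on chromosome III measured 2591 and 2498 bp (8242465 to 8245055) and 2829 and 2497 bp (2784987 to 2787875), and one on chromosome II measured 3124 and 2492 bp (2918350 to 2921473). The narrower list was replicate 1 in 2 of the 3 regions just inside the limit and replicate 2 in all 3 just outside it.

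**Figure D1:**
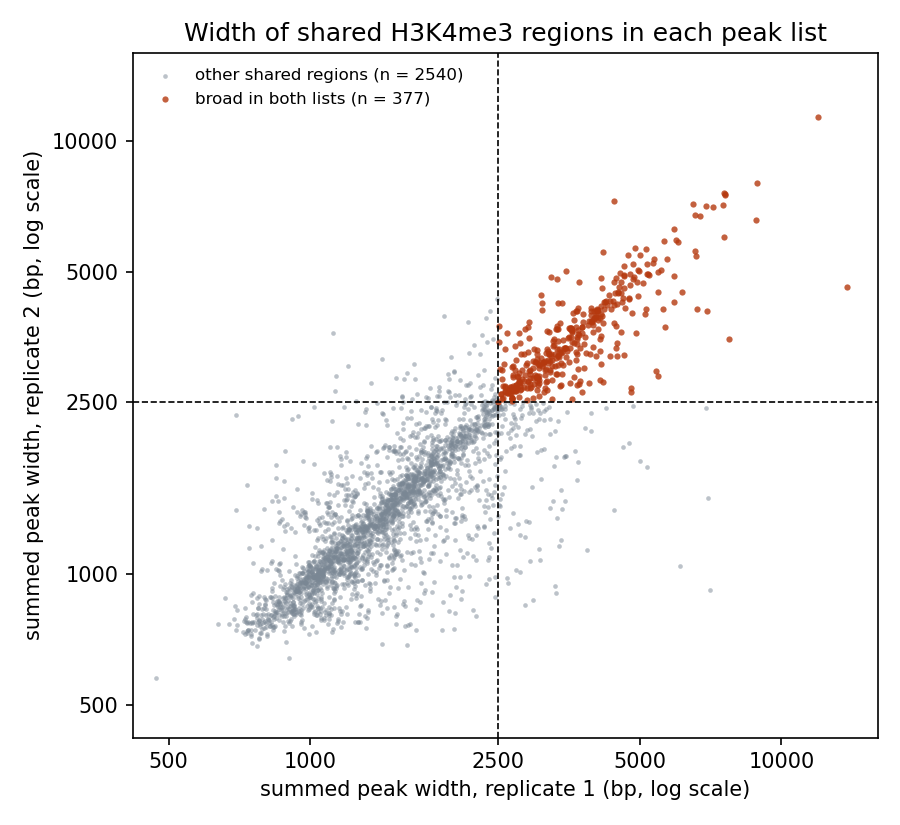
Summed peak width of each shared region in replicate 1 (x axis, bp, log scale) and replicate 2 (y axis, bp, log scale). Each point is a region, red for the 377 broad domains and grey for the 2540 others, and the dashed lines mark 2500 bp; the points run along the diagonal without a gap at the limit, and a scatter of regions is broad on one axis alone.

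Since domains were ranked by the smaller width, those at the top were wide in both lists. The first lay on chromosome II (13816910 to 13828879), with 11964 bp in replicate 1 and 11388 bp in replicate 2. Replicate 1 called it as 1 peak, and replicate 2 called 3 peaks of 7077, 1724 and 2587 bp, separated by gaps of only 73 and 203 bp. The pieces of replicate 2 did not score alike, with the ceiling value of 3100 in the widest, 1700 in the middle one and 2833 in the one on the right. The second, also on chromosome II (10541352 to 10550250), measured 8871 and 8005 bp and was broken into 2 peaks in each list. The breaks were at different places, since the first piece measured 3595 bp in replicate 1 and 5022 bp in replicate 2. The score is a value that the authors' peak caller attached to a peak. It has no named scale, and many peaks share the value 3100. Only 42 peaks of replicate 1 and 29 of replicate 2 scored above it, up to 3233 and 3230, and all peaks at 3100 or more are called at the ceiling here.

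Another 10 domains followed in the ranking, with smaller widths from 6500 to 7544 bp. Chromosome I held 4 of these, at 14855992 to 14863303 (7165 bp in replicate 1, 7059 bp in replicate 2), 1831874 to 1839298 (6904 and 7108 bp), 7079719 to 7088560 (8842 and 6581 bp) and 14755228 to 14761981 (6547 and 6754 bp). Chromosome V held 3, at 9543222 to 9550910 (7599 and 7508 bp), 1150131 to 1157665 (7535 and 7131 bp) and 9338302 to 9345059 (6718 and 6733 bp). Chromosome II held 2, at 8124291 to 8132030 (7541 and 7593 bp) and 7677151 to 7684771 (6500 and 7159 bp). The remaining one was on chromosome III at 10812571 to 10820170 (7591 and 7544 bp), and its outer edges in the lists lay only 9 and 38 bp apart. Of these 12 widest domains, 8 had the same ceiling score in both lists, and the other 4 were at the ceiling in replicate 1 alone. None of the 12 was on chromosome IV or X. The widest on chromosome IV (11116866 to 11123443) measured 6578 and 5437 bp, and the widest on X (6088782 to 6093983) measured 5202 and 4953 bp.

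Of the regions that were broad in one list, most were broad in the other. Regions of 2500 bp or more numbered 534 in replicate 1, of which 70.6% were broad in both (66.6 to 74.3%), and 474 in replicate 2, of which 79.5% were (75.7 to 82.9%). Among single peaks, 12% in replicate 1 and 13.4% in replicate 2 reached 2500 bp. The second list fell short of the limit in 126 regions broad in replicate 1 alone and in 71 broad in replicate 2 alone. Many of these were near misses, because the narrower list still had 2000 bp or more in 64 of the 126 and in 40 of the 71. In 18 and 5 regions, however, it had less than 1250 bp. A further 31 broad peaks of replicate 1 and 26 of replicate 2 overlapped no peak of the other list, which was 2.12% of the 1460 peaks found in replicate 1 alone and 9.15% of the 284 found in replicate 2 alone.

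The regions on whose width the lists differed most were wide in replicate 1. The 5 shared regions broad in 1 list with the largest difference were all broad in replicate 1. On X (2211950 to 2219150), replicate 1 had 7058 bp at the ceiling and replicate 2 had 923 bp with a score of 50.1. On chromosome II, a region at 10497584 to 10504570 had 6987 and 1499 bp, and one at 1145442 to 1152387 had 6914 and 2429 bp with scores of only 111.5 and 135.8. On chromosome III, a region at 9636474 to 9642597 had 6106 and 1044 bp. The other, at 5077220 to 5082410, had 5191 and 1773 bp with the ceiling score in both lists, and the lists shared its right edge to within 15 bp while the left edges lay 3403 bp apart.

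Inside most domains the lists covered nearly the same bases. The Jaccard index, which is the number of bases covered by both lists over the number covered by either, had a median of 0.932 over the 377 domains (0.913 to 0.943) and of 0.896 over the other shared regions (0.891 to 0.901). The larger of the 2 widths exceeded the smaller by a median factor of 1.06 in domains and 1.09 in the others. Replicate 1 was the wider one in 228 of the 377 domains, 60.5% (55.5 to 65.3%), against 65.9% in the others (64.0 to 67.7%), and in 65.2% of all 2911 shared regions of unequal width. Across the domains, Spearman's rho of the widths was 0.785 and Pearson's r of log2 widths was 0.81, as a description over 377 regions that all lie above the same limit.

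Edges of domains were farther apart in base pairs than those of narrower regions, but closer in proportion to width. The starts in the lists differed by a median of 81 bp (63 to 96 bp) and the ends by 82 bp (70 to 98 bp), against 52 bp (49 to 56 bp) and 51 bp (48 to 54 bp) in the other shared regions. These offsets are below the length of the selected fragments. Both edges agreed to within 100 bp in 129 domains, 34.2% (29.6 to 39.1%), against 48.2% of the others (46.3 to 50.2%) and 46.4% of all shared regions, a difference of −14.0 percentage points (−19.0 to −8.72). An edge differed by more than 500 bp in 90 domains, 23.9% (19.8 to 28.4%), against 14.2% of the others (12.9 to 15.6%) and 15.4% of all shared regions, a difference of 9.70 points (5.43 to 14.4). Added up and divided by the joined width, the offsets came to a median of 5.79% in domains (4.93 to 6.80%) and 10.3% in the others (9.81 to 10.8%). This ratio is divided by a width that the rule used, and regions broad in 1 list alone count among the others, so part of the closer relative agreement, and of the higher Jaccard index, is set by the choice of the domains.

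Some domains had almost identical limits in the replicates, and a few did not. The domain on chromosome I at 2927429 to 2930649 measured 3218 and 3221 bp, with starts 2 bp and ends 1 bp apart. On X, the domain at 3111904 to 3116766 measured 4863 and 4857 bp, with edges 2 and 4 bp apart. At the other extreme, the domain on chromosome V at 20660071 to 20673849 had 13779 bp in replicate 1 and 4609 bp in replicate 2, a Jaccard index of 0.334, and edges 3328 and 5842 bp apart. Its score was at the ceiling in replicate 1 and 105.8 in replicate 2. The domain on chromosome I at 5874629 to 5882372 had 7744 and 3498 bp and scores of 3100 and 79.9. These 4 were picked after their values were seen, as the extremes of the Jaccard index.

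**Figure D2:**
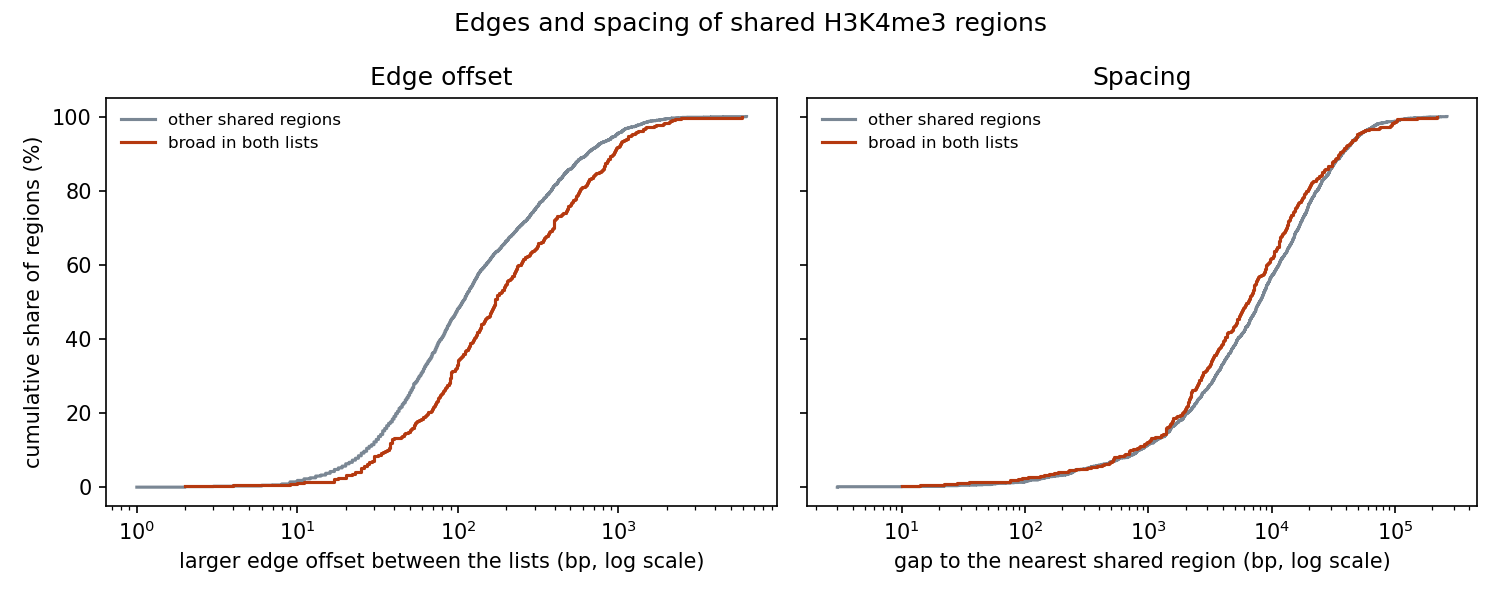
Cumulative share of regions (y axis, %) by the larger of the 2 edge offsets between the lists (left, bp, log scale) and by the gap to the nearest shared region (right, bp, log scale), for broad domains (red, n = 377) and other shared regions (grey, n = 2540). The offset curve of the domains lies to the right, with a median of 170 against 107 bp, whereas the gap curves run close together.

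Some domains were called as several peaks in a list. A domain was split in at least 1 list in 70 of 377 cases, 18.6% (15 to 22.8%), against 29 of 2540 other shared regions, 1.14% (0.796 to 1.63%), and 3.39% of all shared regions. The difference was 17.4 percentage points (13.8 to 21.7). The rule adds up the pieces of a region, and a wider region has more room for pieces, so part of this difference follows from how the domains were chosen. With the widest single peak of each list in place of the sum, 335 domains remained and 8.36% were split, a difference of 5.61 points (3 to 9.11). The split share was 13.9% in the domains of 2500 to 3000 bp (9.06 to 20.6%) and 38.5% in those of 5000 bp or more (22.4 to 57.5%), a difference of 24.6 points (7.19 to 44.2).

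Most of the splitting was in replicate 2. In that list 58 domains were split, 15.4% (12.1 to 19.4%), against 2.61% of all shared regions. In replicate 1, 17 domains were split, 4.51% (2.83 to 7.10%), against 1.06% of all shared regions. In 50 domains replicate 1 had 1 peak and replicate 2 had 2, in 3 domains replicate 2 had 3, and in 12 domains replicate 1 had 2 peaks and replicate 2 had 1. Only 5 domains were split in both lists, 1.33%, against 0.274% of all shared regions. The gaps between pieces were short, with a median of 168 bp over 61 gaps in replicate 2 (109 to 229 bp) and of 47 bp over 17 gaps in replicate 1 (28 to 158 bp). A gap was under 500 bp in 51 and 15 cases. Split domains were wider than single ones, with median smaller widths of 3686 bp (3337 to 3935 bp) and 3194 bp (3091 to 3287 bp). They were at the ceiling in both lists in 29 of 70 cases, 41.4% (30.6 to 53.1%), against 201 of 307, 65.5% (60 to 70.6%), a difference of −24.0 points (−36.0 to −11.1). A single peak of 2500 bp or more was present in both lists in 28 of the 70 split domains, against 307 of 307. The rule adds up pieces and the score is that of the highest piece. The ceiling difference is therefore not separate from how the domains were chosen.

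The domains called as the most peaks were of several kinds. Besides the 2 widest domains, they included one on chromosome V (3579047 to 3584439) with a single peak of 4306 bp and a score of 1485 in replicate 1. Replicate 2 had 3 peaks there, of 1251, 1169 and 2004 bp, and each scored under 100. Another on chromosome V (14829608 to 14834355) had 2 peaks in each list, with best scores of 707.7 and 82.4. On chromosome I (1699406 to 1702991) both lists broke the domain near the same place, and its weaker left piece scored 184.8 and 124.1 whereas its right piece was at the ceiling in both. That domain thus joined a weak and a strong peak that lay side by side.

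Most broad domains scored high, as a description of the peaks that chose them. The highest peak was at the ceiling in both lists in 230 domains, 61.0% (56.0 to 65.8%), against 14.3% of the other shared regions (13.0 to 15.7%) and 20.3% of all shared regions. In 93 domains (24.7%) it was at the ceiling in replicate 1 alone, against 24.5% of all shared regions, and in 54 (14.3%) in neither list, against 55.2% of all shared regions in neither. It was at the ceiling in replicate 2 alone in 0 of 377 domains, which by a limit of 3 counts allows a share of up to 0.796%. The count was also 0 over all 2917 shared regions. The share at the ceiling in both lists went from 43.7% of shared regions of 2000 to 2500 bp (37.7 to 49.8%) to 56.2% of domains of 2500 to 3000 bp (47.8 to 64.2%) and 69.2% of those of 5000 bp or more (50.0 to 83.5%). Among domains, width and score were hardly related within a list, with Spearman's rho of 0.01 in replicate 1 and 0.09 in replicate 2. In the other shared regions rho was 0.43 and 0.52. With 85.7% of domains tied at the ceiling in replicate 1 (44.8% of all shared regions) and 61.0% in replicate 2, rho over the domains rests on the minority below it.

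A small number of domains were broad but weak. Scores under 300 were found in 6 domains in replicate 1 (1.59%) and in 18 in replicate 2 (4.77%). In 2 domains (0.531%) both lists were under 300. These shares were taken for the domains only, so they give no comparison with the other shared regions. The 2 domains under 300 in both lists were on chromosome II. The domain at 11757375 to 11761425 measured 3688 bp in 2 pieces in replicate 1 and 4051 bp in replicate 2, with scores of 148.9 and 205.9. The domain at 13507922 to 13512263 measured 4238 and 4278 bp in single peaks, with scores of 249.3 and 130.3, and its edges agreed to 64 and 104 bp. The next lowest by mean score rank were the split domain on chromosome V at 14829608 to 14834355 described above, one on chromosome III at 505452 to 511136 (4886 and 5685 bp, scores of 147.3 and 358.6) and one on X at 6518407 to 6521916 (3279 and 3463 bp, scores of 1458 and 54.4). The Jaccard indices of these weak domains ran from 0.781 to 0.961, against a median of 0.932 over all domains. Other domains under 300 in replicate 2 ranged more widely. On chromosome V the index was 0.334 at 20660071 to 20673849 and 0.976 at 2881134 to 2883853. The 6 domains under 300 in replicate 1 had a median width of 4539 bp there, against 3532 bp for the 323 at the ceiling. In replicate 2 the order was the opposite, with 2950 bp for the 18 domains under 300 and 3506.5 bp for the 230 at the ceiling.

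**Figure D3:**
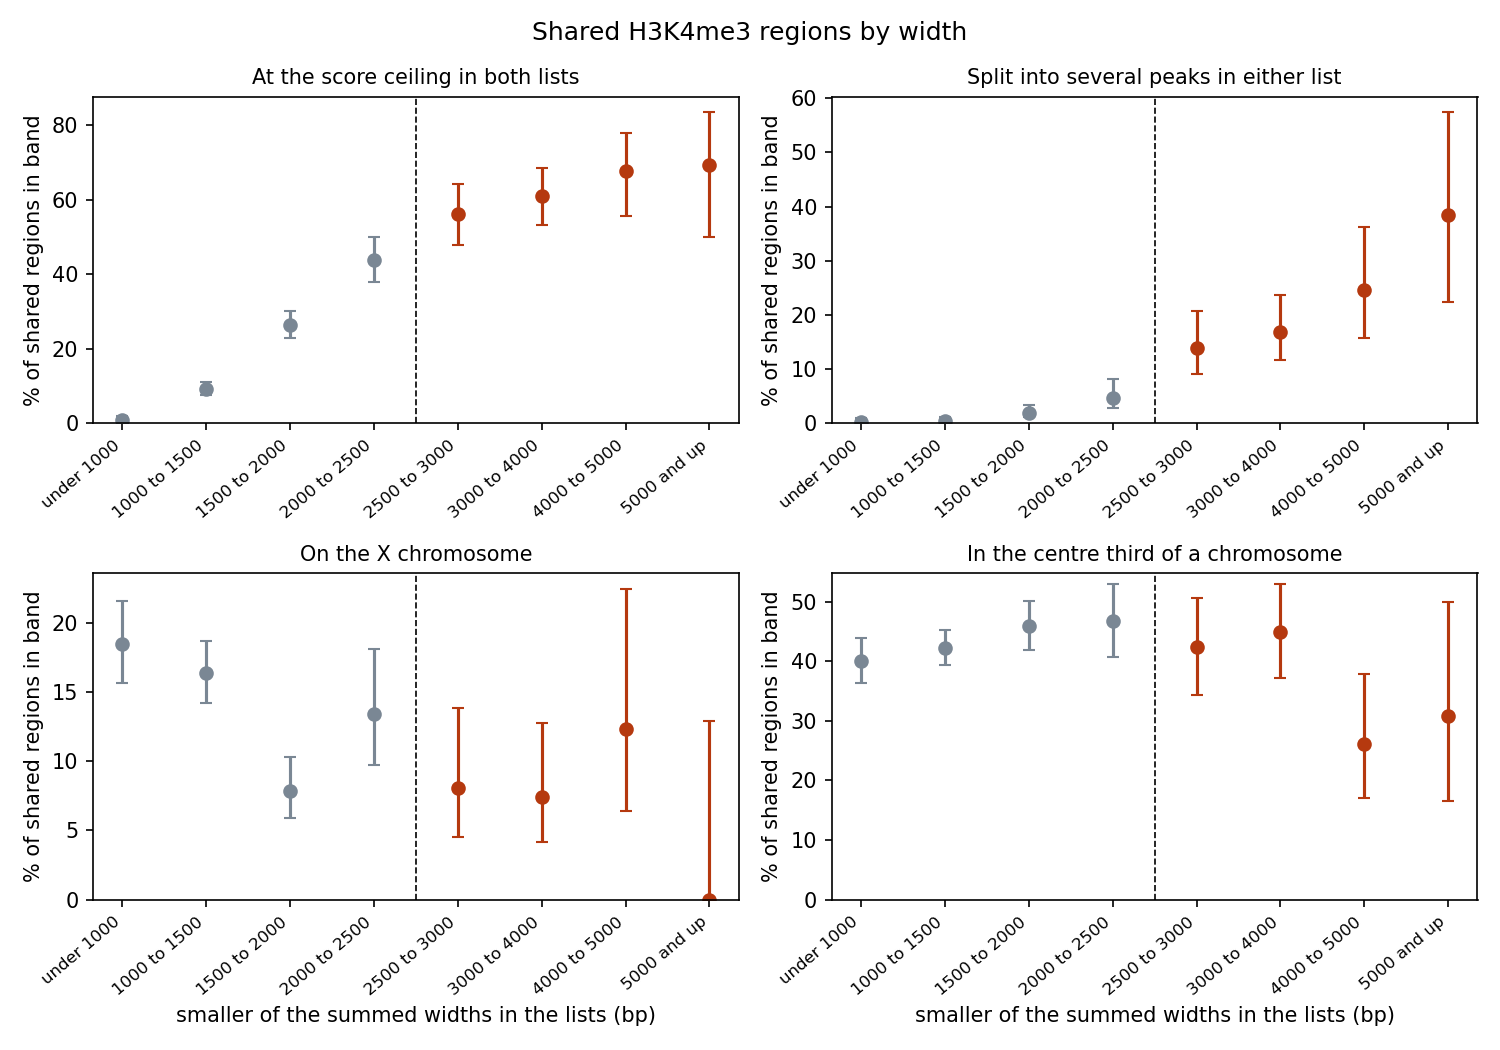
Share of shared regions (y axis, %) at the score ceiling in both lists, split into several peaks, on X, and in the centre of a chromosome, by the smaller of the summed widths in the lists (x axis, bp). Points are shares with 95% Wilson intervals, grey below and red above the dashed limit of 2500 bp; ceiling and split shares climb with width, the X share is 18.4% under 1000 bp, 7.81% at 1500 to 2000 bp, 13.4% at 2000 to 2500 bp, 8.03% at 2500 to 3000 bp and 12.3% at 4000 to 5000 bp, and the centre share is 45.0% at 3000 to 4000 bp and 26.2% at 4000 to 5000 bp.

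Broad domains occurred on every chromosome, with a lower share on X. They were 14.7% of the shared regions of chromosome IV (68 of 462), 14.6% on II (69 of 473), 14.2% on I (84 of 592), 12.8% on V (55 of 431) and 12.7% on III (71 of 557). The intervals of these 5 shares overlap throughout, from 9.94 to 18.2%. On X they were 7.46% (30 of 402, 5.28 to 10.5%), against 13.8% on the autosomes together (347 of 2515, 12.5 to 15.2%). Put the other way, X held 7.96% of the broad domains (5.63 to 11.1%), 14.6% of the other shared regions (13.3 to 16.1%) and 13.8% of all shared regions, a difference of −6.69 percentage points (−9.42 to −3.25). Per Mb there were 5.58 domains on I, 5.16 on III, 4.52 on II, 3.89 on IV, 2.64 on V and 1.70 on X. The limit is on width, and the X share also varied among narrower shared regions. It was 18.4% under 1000 bp, 16.3% at 1000 to 1500 bp, 7.81% at 1500 to 2000 bp and 13.4% at 2000 to 2500 bp. Among the domains it was 8.03% at 2500 to 3000 bp, 7.38% at 3000 to 4000 bp and 12.3% at 4000 to 5000 bp. At 5000 bp or more it was 0 of 26. Domains were chosen by width, and X and the autosomes were not compared at matched widths. The cause of the lower share of domains on X was not tested.

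The X difference took different values by which list was asked to be broad, with overlapping intervals. With the limit asked of replicate 1 alone it was −3.20 percentage points (−6.06 to 0.131), and with the limit asked of replicate 2 alone it was −7.32 points (−9.88 to −4.18). With only the upper part of each list by score, from its median up, it was −1.80 points (−4.71 to 1.92). Of the regions broad in replicate 1, 61 were on X, and 30 of them were broad in both lists, 49.2% (37.1 to 61.4%), against 347 of 473 on autosomes, 73.4% (69.2 to 77.1%), a difference of −24.2 points (−36.9 to −11.3). Of those broad in replicate 2, the shares were nearly equal, 30 of 38 on X, 78.9% (63.7 to 88.9%), and 347 of 436 on autosomes, 79.6% (75.6 to 83.1%). In replicate 2, the 26 shared X regions broad in replicate 1 alone scored a median of 229.5, and the 100 on autosomes 706.9. With both lists held to the same number of peaks, the X difference was −6.23 points (−9.00 to −2.74). Whether the lower scores of replicate 2 bear on the X share was not tested.

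The domains of X and of the autosomes had close median widths. The median smaller width was 3232.5 bp on X and 3250 bp on autosomes. On X, 15 of 30 domains were at the ceiling in both lists, 50% (33.2 to 66.8%), against 62.0% on autosomes (56.7 to 66.9%), a difference of −12.0 points (−29.5 to 5.67). Among the other shared regions this share was 4.57% on X and 16.0% on autosomes. None of the 26 domains of 5000 bp or more was on X, which allows a share of up to 11.5% by the limit of 3 counts. The 3 widest domains of X were the one at 6088782 to 6093983 and the one at 3111904 to 3116766 described above, and one at 16380855 to 16386060 with 4839 bp in 2 pieces in replicate 1 and 5206 bp in 1 piece in replicate 2. The last of these scored only 207.8 in replicate 1 and 1112 in replicate 2, the reverse of the usual order of the lists.

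**Figure D4:**
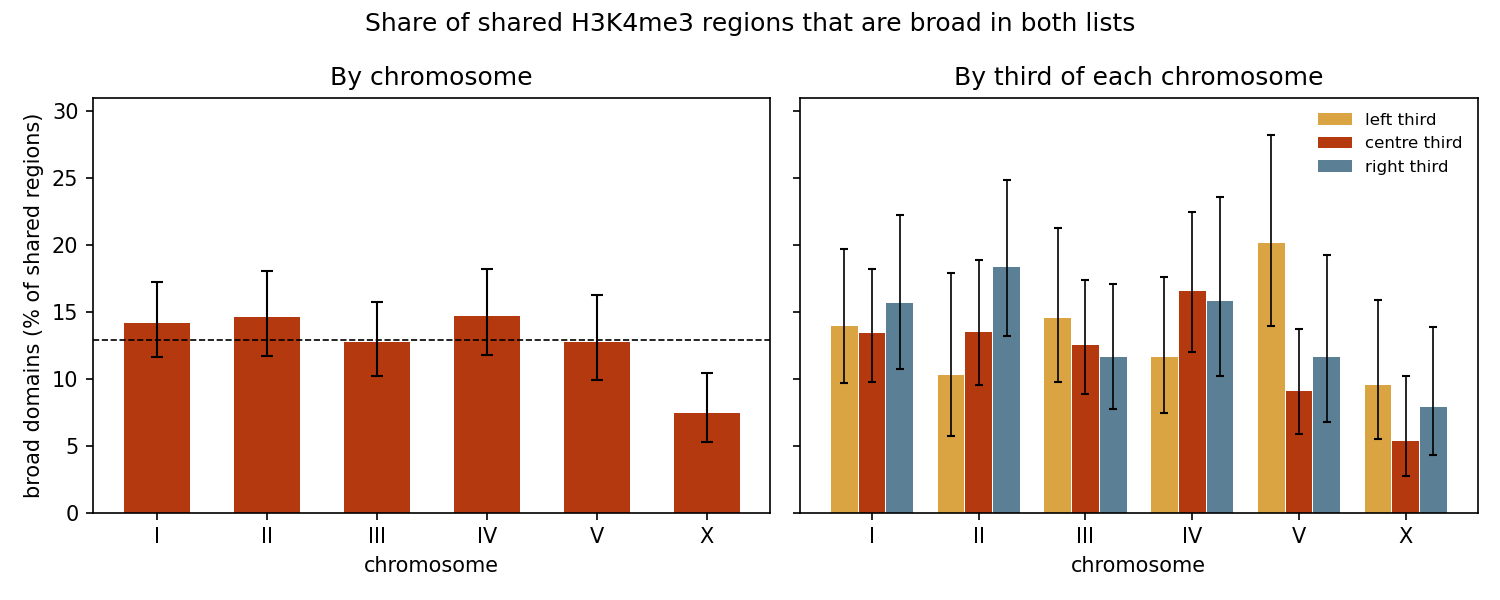
Broad domains as a share of shared regions (y axis, %) by chromosome (left) and by left, centre and right part of each chromosome (right). Bars are shares with 95% Wilson intervals and the dashed line is the share over all chromosomes, 12.9%; X is the lowest at 7.46%, and the left part of chromosome V (20.2%) stands above its centre (9.09%).

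Over all chromosomes, domains and other shared regions had overlapping shares in each part. When each chromosome was divided into 3 equal parts, the centre held 150 of the 377 domains, 39.8% (35.0 to 44.8%), against 43.0% of the other shared regions (41.1 to 45.0%) and 42.6% of all shared regions, a difference of −3.24 points (−8.43 to 2.13). Domains made up 13.4% of shared regions in the left part, 12.1% in the centre and 13.7% in the right part, with overlapping intervals. On chromosome V the shares were farther apart. There, 19 of 55 domains lay in the centre, 34.5% (23.4 to 47.7%), against 50.5% of its other shared regions (45.5 to 55.6%), a difference of −16.0 points (−28.2 to −1.86). Domains were 20.2% of the shared regions in its left part (24 of 119, 13.9 to 28.3%) and 9.09% in its centre (19 of 209, 5.90 to 13.8%). On X, 8 of 30 domains lay in the centre, 26.7% (14.2 to 44.4%), against 37.9% of its other shared regions (33.1 to 42.9%), and the difference of −11.2 points had an interval from −24.7 to 7.18. Chromosome IV had 47.1% of its domains (35.7 to 58.8%) and 40.9% of the others (36.1 to 45.8%) in the centre, a difference of 6.20 points (−6.21 to 18.8). Chromosomes V, X and IV were singled out after their values were seen, and on I, II and III the centre shares of domains (40.5 to 40.8%) and others (41.8 to 44.3%) lay closer together. The outer parts of II were uneven, also seen afterwards. Domains were 10.3% of shared regions in its left part (10 of 97, 5.70 to 17.9%) and 18.3% in its right part (31 of 169, 13.2 to 24.9%).

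The centre share also differed with width. Of the 91 domains of 4000 bp or more in each list, 25 were in a centre, 27.5% (19.4 to 37.4%), against 125 of the 286 from 2500 to 4000 bp, 43.7% (38.1 to 49.5%), a difference of −16.2 points (−26.2 to −4.81). The limit of 4000 bp was set after these values were seen. Within 1000 kb of a chromosome end lay 42 of the 377 domains, 11.1% (8.35 to 14.7%), against 10.7% of the other shared regions (9.56 to 12%).

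The spacing of broad domains covered much the same range as that of the other shared regions, with a shorter median gap from edge to edge. The gap from a domain to the nearest shared region, measured from edge to edge, had a median of 6410 bp (5177 to 7457 bp), against 7918 bp (7450 to 8553 bp). The interquartile ranges were 2226 to 15345 bp and 2720.5 to 19460.8 bp. Such a gap leaves out the widths that the rule used, so it is shorter for a wider region at the same middle-to-middle distance. Measured from middle to middle, the medians were 9457.5 bp (8273.5 to 10539.5 bp) and 9879.5 bp (9273.5 to 10267 bp), distances that include the width of the regions themselves. The nearest shared region lay within 1 kb of 46 domains, 12.2% (9.27 to 15.9%), against 11.6% of the others (10.4 to 12.9%) and 11.7% of all shared regions. The difference was 0.63 percentage points (−2.58 to 4.50). The nearest region lay within 10 kb of 233 domains, 61.8%, against 57.0% of the others and 57.6% of all shared regions. That difference was 4.80 points (−0.558 to 9.94). It lay beyond 50 kb for 18 domains, 4.77% (3.04 to 7.42%), against 5.47% (4.65 to 6.43%) and 5.38% of all shared regions.

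The extremes of spacing were far apart. On chromosome III, the domain at 64493 to 67414 lay 10 bp from a shared region on its left, and the domain at 13461110 to 13465274 lay 14 bp from one on its right. On chromosome II, the domain at 6488742 to 6491391 lay 22 bp from its neighbour on the right. The most isolated domain was on chromosome IV (16167632 to 16170996, 3365 and 3170 bp), with gaps of 235382 bp on the left and 216814 bp on the right. Another on chromosome IV (16654613 to 16657452) was 151571 bp and one on X (12169000 to 12172259) was 149400 bp from the nearest shared region. The last pair were at the ceiling in both lists, whereas the most isolated domain scored 1941 and 406.9.

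The neighbours of broad domains were mostly narrower regions. The next shared region to the right was broad for 57 of 376 domains, 15.2% (11.9 to 19.1%), and for 319 of 2535 other shared regions, 12.6% (11.3 to 13.9%), with 12.9% over all. The difference was 2.58 percentage points (−0.962 to 6.74). With only peaks from the median score up it was 4.92 points (0.00279 to 10.3). The regions on either side of a domain had a mean smaller width with a median of 1502 bp (1419 to 1557 bp), against 1451 bp (1418.5 to 1475 bp) beside the other shared regions. Of the 377 domains, 275 stood alone between narrower regions or a chromosome end, 70 formed 35 pairs, 24 formed 8 runs of 3, and 8 formed 2 runs of 4. At least 1 of the adjacent shared regions was broad for 27.1% of domains (22.8 to 31.8%), 23.1% of the others (21.5 to 24.7%) and 23.6% of all shared regions, a difference of 3.98 points (−0.572 to 8.95). From one domain to the nearest other domain the median gap was 64256 bp (56940 to 82082 bp), and 39 domains (10.3%) had another within 5 kb. This distance was taken for the domains only, so it gives no comparison with the other shared regions.

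The longest runs had different compositions. On chromosome V, 4 domains followed each other within 42375 bp (6393288 to 6435662). The first pair measured 5636 and 5910 bp in replicate 1 and 5877 and 6268 bp in replicate 2, with scores from 125.5 to 856.4 in the lists. The second pair was narrower, at 3185 and 2682 bp in replicate 1 and 2672 and 3017 bp in replicate 2, and was at the ceiling in both lists. In this run the wider domains were therefore the weaker ones. On chromosome II, 4 domains lay within 50289 bp (11728485 to 11778773), and one inside the run was the weak domain with scores of 148.9 and 205.9, between domains at the ceiling. The most compact run of 3 was also on chromosome II (8124291 to 8145202, 20912 bp) and opened with the domain of 7541 and 7593 bp.

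One stretch of chromosome II held more domains than any other. Over 197 whole bins of 500 kb, the number of domains had a mean of 1.88, and the variance was 1.44 times the mean. That ratio was taken for the domains only, so it does not set them apart from the other shared regions. The bin at 11500001 to 12000000 on chromosome II held 10 domains among 24 shared regions, 41.7% (24.5 to 61.2%), against 12.9% over all shared regions. It was followed by the bin on chromosome I at 9500001 to 10000000, with 8 of 26, 30.8% (16.5 to 50.0%), and the one on chromosome V at 6000001 to 6500000, with 6 of 14, 42.9% (21.4 to 67.4%). These bins were picked out of the 197 for their number of domains, and the intervals do not allow for that choice. There were 43 bins without a domain, and 17 of these held 10 or more shared regions. Chromosome I at 8000001 to 8500000, for example, had 24 shared regions and no domain (Wilson interval 0 to 13.8%), against 12.9% over all shared regions. This bin was picked after its counts were seen, and the interval does not allow for that choice. Across the bins, the number of domains and the number of other shared regions correlated with Pearson's r of 0.391 and Spearman's rho of 0.413, as a description over 197 bins of the same 2 lists.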

How the data were processed

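H3K4me3 ChIP-seq peak lists of 2 samples were analysed. Per the submitters' processing notes, BWA was used for alignment (version not given in the sources used here). The positions are on WormBase WS190, per the file headers. Peak names point to MACS and the source column to MA2C, so the caller is uncertain. Peaks were called per sample. The authors deposited a score for each peak (scale not named, many peaks tied at 3100; this value and the few scores above it, up to 3233, were treated as a ceiling) and, as other values, peak positions. Neither read depth nor thresholds are known, so the number of peaks sets the precision, and a missing peak does not show that the mark was absent. Nothing in the labels says that the samples came from separate cultures.

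Peaks of the lists overlapping by 1 bp or more were joined. Width is the sum over a list's peaks in a region, the score of a region is its highest, and score ranks were averaged over the lists. Chromosome spans end at the last peak of either list. The joining was tested on simulated data. Calculations used Python 3.11.15, pandas 2.3.3 and SciPy 1.17.1. The members, measures and limits were chosen with earlier results of these data known. Regions took the place of named genes: the 12 widest domains, the widest on each chromosome, those at the limit, those with the most peaks, the lowest scores, the extremes of spacing, the longest runs, the fullest bins, and the largest differences between lists. The intervals and shares have no p-values. The gene table at hand is on WBcel235 and was not used. Input DNA data were not analysed here. Alternatives changed the width limit, merging, overlap, score filter, list length, and the list asked to be broad.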

Additional observations from a re-analysis of the deposited data

How the results depend on the processing

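Of 112 alternative values for 12 results, 87 stayed within the 95% interval of the reported value (for the number of domains, within 1.5 times), 25 moved beyond it, and 0 of the differences whose interval excludes 0 changed sign. The differences in centre share and in spacing, whose intervals include 0, took either sign. With a limit of 2000 bp there were 631 domains, 54.0% at the ceiling in both lists, 23.2% followed by another domain and 13.0% split (difference 12.3 points). With 3000 bp there were 240, and 10% were followed by another. With peaks closer than 500 bp merged, 9.93% were split (difference 9.59 points) and 6.70% had a neighbour within 1 kb, since close neighbours are merged by construction. With the widest single peak, 8.36% were split (5.61 points). With peaks at or above the median score, 7.77% were split (7.77 points), 72.2% were at the ceiling, 23.4% were followed by another domain (difference 4.92 points, 0.00279 to 10.3, an interval that excludes 0 unlike the reported one), 7.12% had a neighbour within 1 kb, and the X difference was −1.80 points; fewer regions enter by construction, and the cause was otherwise not tested. With 2 kb as the distance, 21.2% had a neighbour, and the middle 50% of a chromosome held 60.7% of domains. With the limit asked of either list alone, the number of domains ranged from 448 to 503, the X share from 7.59 to 11.1%, the X difference from −7.32 to −3.20 points, the share at the ceiling from 51.5 to 55.8%, the split share from 15.1 to 17.0% and the share followed by another domain from 16.6 to 19.7%. An overlap of 50% and lists of equal length left each result within its interval. No paired analysis was possible because the lists form a single group and data of the inputs were not used here. Unknown read depth limits what can be said of weak or missing peaks.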
